A study of Sus scrofa with 22 samples.

Results

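The 6 genes PECAM1, CDH5, CLDN5, TIE1, ANGPT2 and RAMP2, all used as markers of the endothelial cells that line blood vessels, were followed in developing pig muscle at 4 ages. They were taken by name: every probe set of the porcine array that its annotation gives to 1 of these 6 symbols alone was included. This gave 8 probe sets of the 23999 that were tested, for 6 of 6765 named genes, with 2 probe sets each for PECAM1 and CDH5 and 1 for each other gene. These genes were chosen with earlier results of these data known. Counts of their calls beside the shares of all probe sets are therefore descriptions only. The samples were offspring of German Landrace gilts at 94 days after conception (94 dpc, a late fetal age, 6 animals), 1 day after birth (1 dpn, 6 animals), 28 days after birth (28 dpn, 6 animals) and 188 days after birth (188 dpn, 4 animals). All dams, whatever the age of the offspring, ate the gestational diet with an adequate protein level, so every group shares it and no effect of diet can be seen here. At each age the offspring came from 3 gilts, and no label ties an animal to its gilt. The p-values therefore measure the spread between these animals and come out too small where littermates are alike.

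Endothelial cells hold on to one another through adherens junctions, built on VE-cadherin (CDH5), and tight junctions, in which claudin-5 (CLDN5) takes part, while PECAM1 sits at the same cell borders and is also carried by platelets and leukocytes. TIE1 is a receptor tyrosine kinase of the angiopoietin system, and angiopoietin-2 (ANGPT2) is a secreted ligand of its partner receptor TEK that is known for loosening vessels during remodelling. RAMP2 is an accessory protein that turns the receptor CALCRL into a receptor for adrenomedullin, a vasoactive peptide. In skeletal muscle these cells form the capillary bed around the fibres.

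The values are signal intensities on a linear scale, brought by the authors to the same trimmed mean on every array. A signal of 69.7 is called background here, which is the 95th percentile over 23 control probe sets without a target in the sample. The tissue in all sample labels is liver, but the title of the series says muscle. The summed signal of 13 skeletal muscle fibre genes ranged from 283627 to 857615 over the 22 arrays, and that of 13 hepatocyte genes from 7920 to 53827 at 94 dpc and from 2142 to 11739 at the later ages. Of 25 other endothelial marker genes on the array, no more than 3 had a mean below background at any stage. In 4 of the 6 arrays of 1 dpn the signal at the 5′ end of the GAPDH transcript was low, with a 5′/3′ ratio of 0.140 to 0.332, against 1.14 and 1.15 on the other 2 and 0.731 to 1.26 at the other ages. Results of the 6 markers that rest on 1 dpn are therefore also given on only the 2 arrays with even 5′ signal, and for other genes the calls that end there are named. In whole muscle, fewer endothelial cells and less RNA per cell cannot be told apart.

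On all 8 probe sets the mean signal at 1 dpn lay under those at 94 dpc and 28 dpn. PECAM1 was measured by a brighter and a dimmer probe set. On the brighter one its lowest, median and highest signals were 3823, 4781 and 5883 at 94 dpc, 1379, 1930 and 2610 at 1 dpn, and 2778, 3864 and 4147 at 28 dpn. The 4 animals of 188 dpn had 1356, 752, 863 and 1031. Every array of 188 dpn thus lay below every array of 1 dpn, and these below every array of the other 2 ages, while the ranges of 94 dpc and 28 dpn overlapped. On the dimmer probe set the signals were 680, 828 and 1055 at 94 dpc, 77.4, 172 and 512 at 1 dpn, 722, 901 and 1056 at 28 dpn, and 347, 320, 233 and 325 at 188 dpn. Here 1 dpn and 188 dpn overlapped, and the newborn values were widely spread, with an SD of 169 around a mean of 225.

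CDH5 on its brighter probe set had lowest, median and highest signals of 4016, 4818 and 5134 at 94 dpc, 889, 1322 and 1897 at 1 dpn, and 1756, 2268 and 2604 at 28 dpn. The 188 dpn animals had 750, 612, 548 and 564, so that the fetal arrays were above all others and the arrays of 188 dpn below all others. The dimmer probe set read 272, 308 and 353 at 94 dpc, 83.8, 107 and 281 at 1 dpn, 259, 327 and 371 at 28 dpn, and 124, 84.8, 127 and 98.3 at 188 dpn. On this probe set 94 dpc and 28 dpn shared one range and 1 dpn and 188 dpn another, and a single newborn array, replicate 1, reached the upper range. CLDN5 had lowest, median and highest signals of 1472, 1778 and 2136 at 94 dpc, 318, 435 and 508 at 1 dpn, and 908, 1247 and 1469 at 28 dpn. Its 188 dpn signals were 468, 296, 459 and 357. The newborn and the 188 dpn values of CLDN5 overlapped, and both lay under those of the other 2 ages.

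TIE1 ran closer to background. Its lowest, median and highest signals were 279, 306 and 358 at 94 dpc, 6.98, 39.6 and 110 at 1 dpn, and 128, 213 and 332 at 28 dpn, and the 188 dpn animals had 185, 132, 167 and 190. In the newborn 2 of 6 arrays were above background, and every newborn array was below every array of the other ages. ANGPT2 read 213, 276 and 319 at 94 dpc, 19.0, 38.9 and 83.0 at 1 dpn, 143, 220 and 277 at 28 dpn, and 147, 187, 148 and 142 at 188 dpn. It too was above background on 2 of 6 newborn arrays and separated 1 dpn from the other ages without overlap. RAMP2 had lowest, median and highest signals of 3280, 3618 and 3856 at 94 dpc, 365, 603 and 1099 at 1 dpn, and 1789, 2356 and 2712 at 28 dpn. At 188 dpn the RAMP2 signals were 1417, 863, 915 and 979, which overlapped the newborn range and lay under that of 28 dpn.

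**Figure D1:**
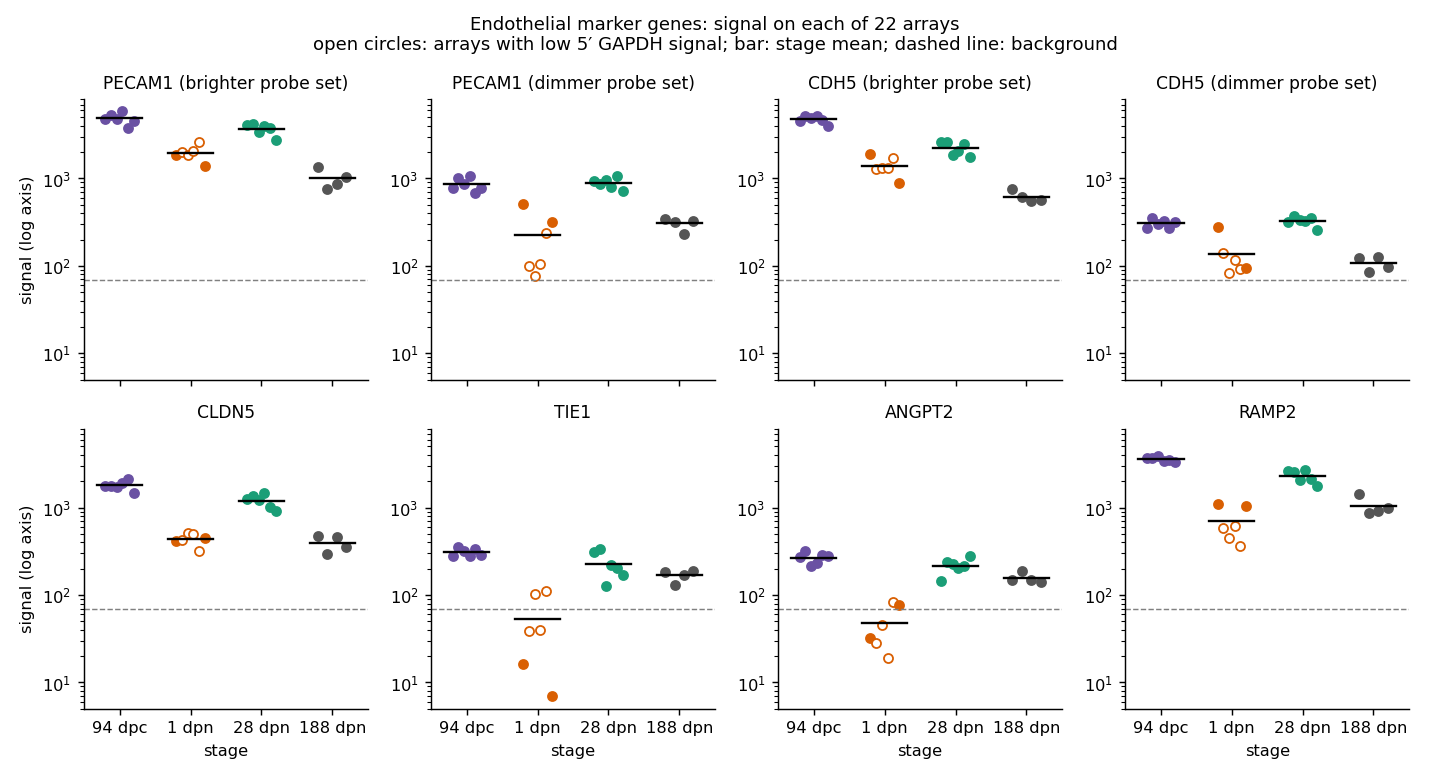
Signal of each endothelial marker probe set on the 22 arrays (log axis, signal intensity) at 94 dpc, 1 dpn, 28 dpn and 188 dpn, with the stage mean as a bar, background (69.7) as a dashed line and the 4 newborn arrays with low 5′ signal as open circles. The newborn arrays of TIE1 and ANGPT2 straddle background, and those of both PECAM1 probe sets, the brighter CDH5 probe set, CLDN5 and RAMP2 lie under every fetal array.

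Between the fetus and the newborn, all 8 probe sets of the 6 markers fell. They were called lower at 1 dpn than at 94 dpc, where called means an adjusted p under 0.05 in limma with Benjamini-Hochberg adjustment over all 23999 probe sets, of which 21.7% were called lower and 10.9% higher in this comparison. In 7 of the 8 every newborn array lay below every fetal array, as was so for 11.2% of all probe sets, and the exception was the dimmer CDH5 probe set. The members' median change was log2 -2.08, or -1.77 with newborn readings of TIE1 and ANGPT2 below background set to background, against -0.08 over all probe sets. Among the junction genes, the brighter PECAM1 probe set averaged 1959 ± 399 at 1 dpn and 4857 ± 701 at 94 dpc (SD, n = 6 each), 2.49-fold lower (log2 -1.32, SE 0.18, adjusted p = 6.1e-06). The dimmer one averaged 225 ± 169 at 1 dpn and 865 ± 149 at 94 dpc, 4.41-fold lower (log2 -2.14, SE 0.31, adjusted p = 1.6e-05). CDH5 averaged 1400 ± 355 at 1 dpn and 4735 ± 430 at 94 dpc on its brighter probe set, 3.44-fold lower (log2 -1.78, SE 0.17, adjusted p = 1.4e-07). Its dimmer probe set gave 136 ± 74.3 at 1 dpn and 308 ± 32.1 at 94 dpc, 2.30-fold lower (log2 -1.20, SE 0.21, adjusted p = 0.00012). CLDN5 was 4.04-fold lower, at 436 ± 70.0 in newborns and 1802 ± 222 in fetuses (log2 -2.01, SE 0.17, adjusted p = 2.0e-08, n = 6 each).

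The angiopoietin pair and the adrenomedullin receptor component also fell. TIE1 averaged 52.6 ± 43.7 at 1 dpn, below background, and 312 ± 32.8 at 94 dpc, and was at least 3.38-fold lower in newborns (adjusted p = 4.0e-06, n = 6 each). ANGPT2 averaged 47.6 ± 26.7 at 1 dpn, also below background, and 267 ± 37.9 at 94 dpc, at least 3.16-fold lower (adjusted p = 1.6e-07). Only 2 newborn arrays measured each gene above background, so these folds are bounds, with every newborn array at the higher of its own signal and background. The adjusted p-values beside them are those of limma on the readings as they stand, and the bounds were not tested. RAMP2 was 5.46-fold lower, with 695 ± 306 at 1 dpn and 3582 ± 226 at 94 dpc (log2 -2.45, SE 0.22, adjusted p = 5.7e-08). All folds are on the log2(signal + 16) scale, which makes changes of dim genes look smaller.

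The size of the newborn trough differed between probe sets, and for some of them between newborn arrays of low and of even 5′ signal. On only the 2 newborn arrays with even 5′ signal all 8 probe sets were still called lower than at 94 dpc, with log2 -1.59 and -1.06 for the brighter and dimmer PECAM1 probe sets, -1.85 and -0.83 for those of CDH5, -2.01 for CLDN5 and -1.73 for RAMP2. TIE1, below background on both of these arrays, was at least 3.81-fold lower than at 94 dpc, and ANGPT2, above background on 1 of them, at least 3.14-fold lower. Within the newborn group, the dimmer PECAM1 probe set averaged 130 on the 4 arrays with low 5′ signal and 414 on the 2 with even signal, and RAMP2 averaged 507 on the 4 and 1070 on the 2. The brighter PECAM1 probe set was lower on the 2 even arrays (1379 to 1837) than on the 4 others (1877 to 2610), without overlap. The dimmer CDH5 probe set averaged 109 on the 4 and 188 on the 2. CLDN5 averaged 438 on the 4 arrays and 433 on the 2, and the brighter CDH5 probe set 1404 on the 4 and 1393 on the 2. TIE1 was below background on both even arrays and on 2 of the 4 others, and ANGPT2 on 1 of the 2 and 3 of the 4, so no direction can be read for either. With 2 arrays on one side no test of this split was run.

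**Figure D2:**
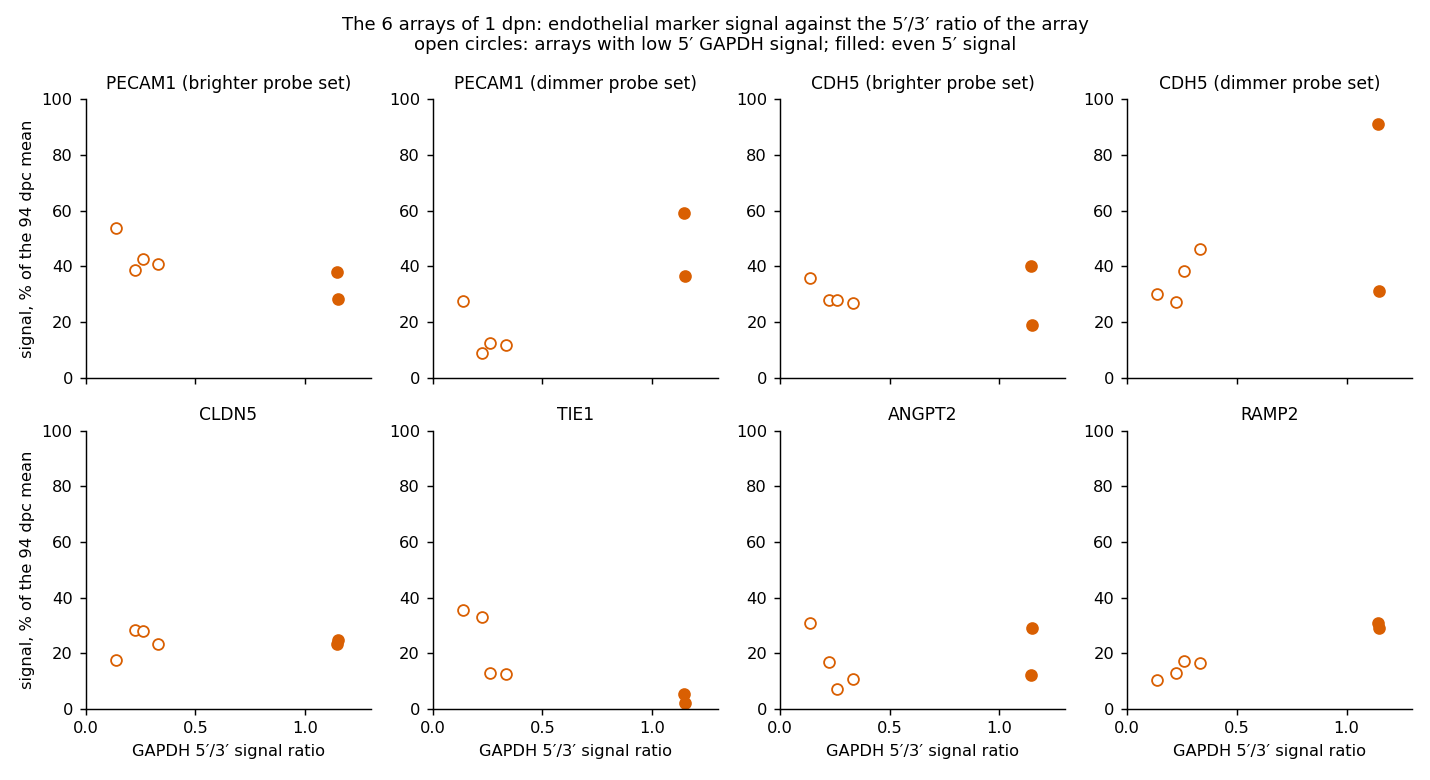
Signal of each probe set on the 6 newborn arrays, as a percentage of its 94 dpc mean, against the GAPDH 5′/3′ signal ratio of the array (open circles, the 4 arrays with low 5′ signal; filled circles, the 2 with even signal). The dimmer PECAM1 probe set and RAMP2 are higher on the 2 even arrays, the brighter PECAM1 probe set is lower there, and CLDN5 averages 433 on these 2 and 438 on the 4 others. Most readings of TIE1 and ANGPT2 are below background.

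Other endothelial genes were called in part at birth. Of 25 other endothelial markers 9 fell and 1 rose (median log2 -0.36), and on the even arrays again 9 fell and 0 rose. Among them were the caveolar protein CAVIN2 (log2 -1.47), the leukocyte adhesion molecule VCAM1 (log2 -1.37) and the tetraspanin TSPAN7 (log2 -1.33). The adhesion receptor ADGRL4 averaged 30.7 at 1 dpn, below background, and 117 at 94 dpc, at least 1.45-fold lower (adjusted p = 0.00048), and was not called on the even arrays alone (adjusted p = 0.143). TEK, the receptor that binds ANGPT2, averaged 270 at 1 dpn and 458 at 94 dpc (log2 -0.76, adjusted p = 0.0021), a call that ended under quantile normalization (log2 -0.42, adjusted p = 0.064). Among 5 adrenomedullin and CGRP genes the peptide ADM (log2 -0.98) and the sister protein RAMP1 (log2 -0.81) fell, and neither was called on the even arrays, nor RAMP1 with median centring (adjusted p = 0.0914). CALCRL, the receptor that RAMP2 serves, had mean signals of 19.0, 34.1, 29.8 and 9.75 at 94 dpc, 1, 28 and 188 dpn, all below background, and was looked up after its values had been seen.

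Of 12 junction partners 4 fell, among them the junctional adhesion molecule JAM3 (log2 -1.33), and the claudin CLDN7 rose (log2 0.68). Under quantile normalization, and also on the even arrays alone, 2 were lower and 1 higher. With median centring 2 were lower and at least as many higher. The tight junction scaffold TJP1 was called lower with both means below background, and not on the even arrays (adjusted p = 0.294). None of 5 VEGF ligands and receptors was called by limma in this step (3 at an unadjusted p under 0.05), and 1 rose after quantile normalization and 2 after median centring. In the list for lipid handling in muscle capillaries 4 of 7 measured genes rose, against 10.9% of all probe sets, and 2 fell, against 21.7%. The water channel AQP1 (log2 1.34) and lipoprotein lipase LPL (log2 1.21) were among those that rose. The transcription factors PPARG and MEOX2 fell to means of 42.1 and 32.7 at 1 dpn, below background, against 123 and 111 at 94 dpc. PPARG was not called on the even arrays (adjusted p = 0.910). Of 9 endothelial transcription factors 4 fell, or 2 with median centring, and ETS2 rose (log2 1.17). LMO2 changed by log2 -1.46, and HEY2 averaged 28.5 at 1 dpn, below background, and 96.6 at 94 dpc.

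Markers of other cells also moved in this step, and their part in the members' fall was not tested. Fibroblast genes were lower in 6 of 8, with summed signals of 22440 to 35271 at 1 dpn and 45973 to 64022 at 94 dpc, and COL1A2 fell furthest (log2 -2.17). The 3 measured satellite cell and myoblast genes fell, with sums of 473 to 2058 at 1 dpn and 2756 to 3693 at 94 dpc, but with median centring 1 of the 3 was called. Of 9 mural cell genes, which mark pericytes and smooth muscle, 3 fell: MCAM (log2 -1.67), RGS5 (log2 -1.30) and KCNJ8 (log2 -1.01), the last not on the even arrays (adjusted p = 0.0617). Their summed signals overlapped (44062 to 51219 at 1 dpn, 38463 to 53820 at 94 dpc). Platelet genes had 1 of 5 lower (ITGB3, log2 -1.59), and the list's main direction turned with the scaling, since 3 were higher and 1 lower with median centring and 2 higher and 1 lower after quantile normalization. Of 12 leukocyte genes 1 was lower (LAPTM5, log2 -1.61), and 0 on the even arrays (LAPTM5, adjusted p = 0.199). Leukocyte sums were 1659 to 3904 at 1 dpn and 2847 to 3747 at 94 dpc. Muscle fibre genes were higher in 6 of 13, with sums of 385776 to 557284 at 1 dpn and 283627 to 376994 at 94 dpc, and 1 of 13, CA3, was lower. With median centring 10 of 13 were higher. Under quantile normalization 2 were higher and 3 lower, with CKM, MYL1 and MYLPF between log2 -0.05 and -0.02, and on the even arrays 2 were higher.

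**Figure D3:**
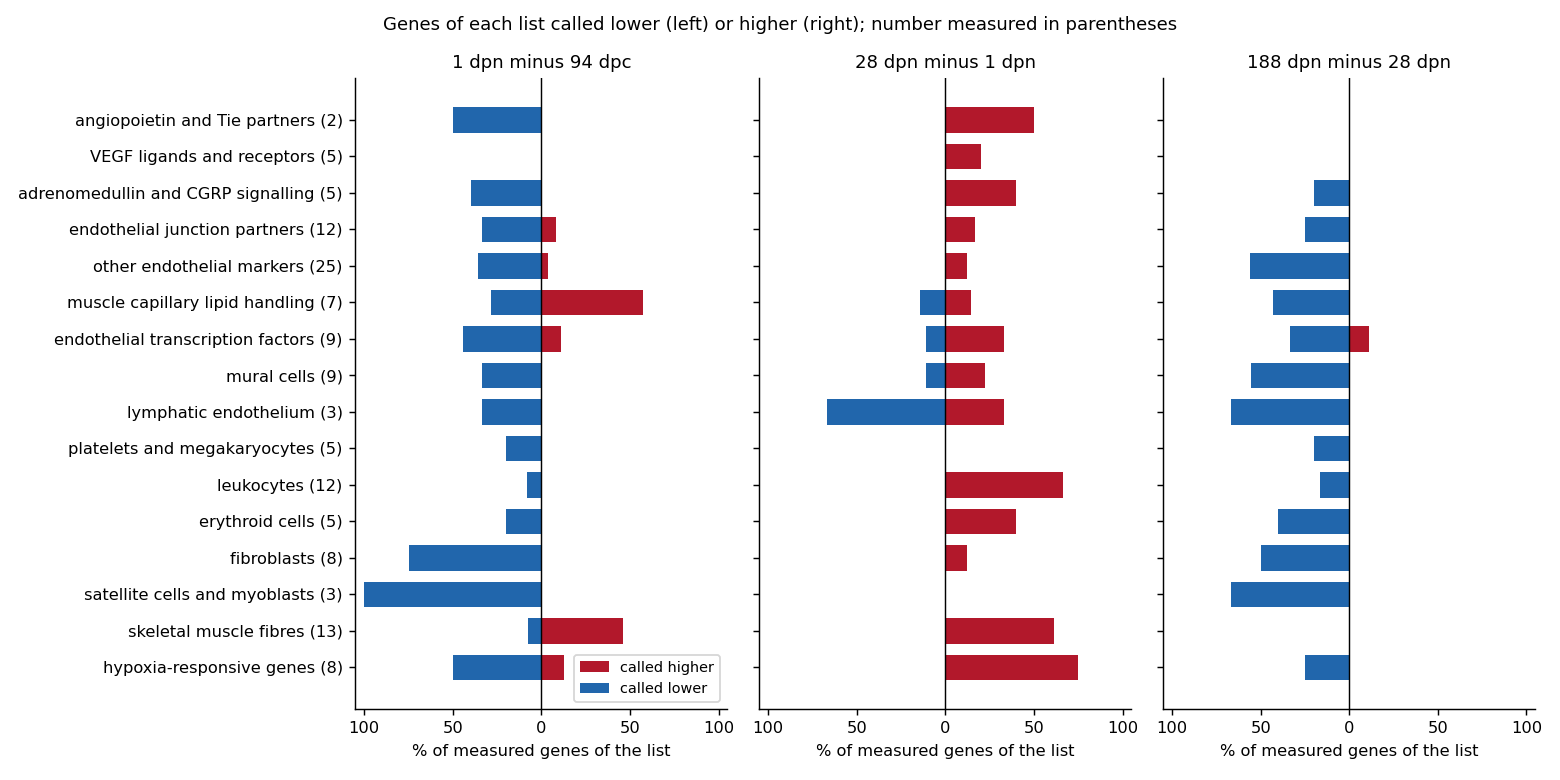
Percentage of the measured genes of each list but the hepatocyte list that were called lower (left of 0) or higher (right of 0) in the steps 1 dpn minus 94 dpc, 28 dpn minus 1 dpn and 188 dpn minus 28 dpn, with the number of measured genes in parentheses. Hepatocyte genes, not shown, had 3 of 13 lower and 1 higher at 1 dpn against 94 dpc. The counts are those at the deposited scaling: 6 of 8 fibroblast genes were lower at 1 dpn (4 with median centring), 8 of 12 leukocyte genes higher at 28 dpn (5 with median centring), and 14 of 25 other endothelial markers lower at 188 dpn (10 with median centring).

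By 28 dpn the endothelial markers had risen again. All 8 probe sets were called higher at 28 dpn than at 1 dpn, against 13.9% of all probe sets called higher and 8.39% called lower, and in 6 of the 8 every array of 28 dpn was above every newborn array, as in 4.98% of all. The exceptions were both CDH5 probe sets. The median change was log2 1.62 for the members, or 1.32 with the bounds of TIE1 and ANGPT2, and 0.10 over all probe sets. This step shares its newborn arrays with the step before, so opposite changes in the 2 steps are not independent. RAMP2 averaged 2315 ± 366 at 28 dpn and 695 ± 306 at 1 dpn, 3.50-fold higher (log2 1.81, SE 0.22, adjusted p = 6.0e-06, n = 6 each). CLDN5 rose 2.70-fold, with 1205 ± 210 at 28 dpn and 436 ± 70.0 at 1 dpn (log2 1.43, SE 0.17, adjusted p = 2.8e-06). For TIE1 the means were 228 ± 80.0 at 28 dpn and 52.6 ± 43.7 at 1 dpn, at least 2.41-fold higher (adjusted p = 0.00011), and for ANGPT2 they were 217 ± 44.1 at 28 dpn and 47.6 ± 26.7 at 1 dpn, at least 2.58-fold higher (adjusted p = 2.3e-06).

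The 2 probe sets of PECAM1 disagreed in size: the brighter one rose 1.90-fold (3700 ± 527 at 28 dpn, 1959 ± 399 at 1 dpn, log2 0.92, SE 0.18, adjusted p = 0.00059) and the dimmer one 4.57-fold (893 ± 122 at 28 dpn, 225 ± 169 at 1 dpn, log2 2.19, SE 0.31, adjusted p = 2.8e-05). On the 2 even newborn arrays they came to log2 1.20 and 1.105. The brighter CDH5 probe set had the smallest change of the 8, 1.61-fold (2224 ± 376 at 28 dpn, 1400 ± 355 at 1 dpn, log2 0.68, SE 0.17, adjusted p = 0.0063), and the dimmer one rose 2.43-fold (326 ± 37.9 at 28 dpn, 136 ± 74.3 at 1 dpn, log2 1.28, SE 0.21, adjusted p = 0.00012). The call of the brighter CDH5 probe set ended when only these 2 ages were fitted (adjusted p = 0.0506). On the even arrays all 8 were again called higher, with log2 0.75 and 0.91 for CDH5, 1.43 for CLDN5 and 1.09 for RAMP2, and at least 2.71-fold for TIE1 and 2.57-fold for ANGPT2.

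Of 25 other endothelial markers 3 rose, a share near the 13.9% of all probe sets. They were ADGRL4 (at least 1.45-fold), the clotting carrier protein VWF (log2 1.47) and the vessel wall factor EGFL7 (log2 0.62), and 0 fell in limma, also at an unadjusted p under 0.05. On the even arrays neither ADGRL4 (adjusted p = 0.178) nor VWF (adjusted p = 0.148) was called, and EGFL7 was not with median centring (adjusted p = 0.0681). ANGPT1, the ligand that activates TEK, averaged 73.9 at 28 dpn, near background, and 19.3 at 1 dpn, below it (adjusted p = 0.020 with limma on the readings as they stand). It was above background on 0 of 6 newborn arrays. With newborn readings set to background its fold came to 0.92, so no rise of ANGPT1 can be read. RAMP1 rose to 20008 at 28 dpn, against 4235 at 1 dpn (log2 2.29, adjusted p = 4.1e-07). ADM rose by log2 0.58, a call that ended with median centring (adjusted p = 0.192), after quantile normalization (adjusted p = 0.0715) and on the even arrays (adjusted p = 0.471). VEGFA, the main growth signal for endothelium, averaged 6281 at 28 dpn and 3432 at 1 dpn (log2 0.94, adjusted p = 0.0016). It stands also among the hypoxia-responsive genes, of which 6 of 8 rose, or 4 of 8 with median centring and on the even arrays. Among the 12 junction partners ESAM (log2 0.75) and TJP1, near background at 28 dpn and below it at 1 dpn, were called higher, and on the even arrays 0 were (ESAM adjusted p = 0.0525, TJP1 adjusted p = 0.103). Of 9 endothelial transcription factors 3 were higher and 1 lower, with changes from log2 -2.29 to 1.25. With median centring 1 was higher and 1 lower, and on the even arrays 0 and 1. Of 7 lipid-handling genes 1 was higher and 1 lower (log2 -1.11 to 1.66), and on the even arrays 1 and 0.

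Leukocyte genes rose in 8 of 12 at 28 dpn, with summed signals of 3347 to 11762 at 28 dpn and 1659 to 3904 at 1 dpn and the mean of 1 of the 12 below background at 28 dpn. The complement component C1QC led (log2 2.21, adjusted p = 0.00029), followed by LAPTM5 (log2 2.15) and FCER1G (log2 1.43). With median centring 5 of 12 were called, after quantile normalization 5, and on the even newborn arrays 2, where C1QC (adjusted p = 0.145) and LAPTM5 (adjusted p = 0.0672) were not. PECAM1 is carried by leukocytes too, and the part of these cells in its rise was not tested. Platelet genes had 0 of 5 called by limma (1 lower at an unadjusted p under 0.05), with sums of 666 to 1141 at 28 dpn and 646 to 1011 at 1 dpn. With median centring, and also after quantile normalization, 1 of the 5 was called lower. Mural cell genes had 2 of 9 higher, RGS5 (log2 1.47) and CNN1 (log2 1.26), and PDGFRB lower (log2 -1.05). On the even arrays neither CNN1 (log2 0.87, adjusted p = 0.219) nor PDGFRB (log2 -0.44, adjusted p = 0.158) was called. Fibroblast genes had 1 of 8 higher, COL1A2 (log2 1.69). With median centring, and also after quantile normalization, 1 of the 8 was higher and 1 lower. Muscle fibre genes were higher in 8 of 13, or 5 with median centring and 11 on the even arrays.

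Set against the fetus, the levels at 28 dpn were lower for some members and not for others. CDH5 on its brighter probe set averaged 2224 ± 376 at 28 dpn and 4735 ± 430 at 94 dpc, 2.14-fold lower (log2 -1.10, SE 0.17, adjusted p = 5.2e-05, n = 6 each), while its dimmer probe set differed by log2 0.08 (95% interval -0.35 to 0.51, adjusted p = 0.81). CLDN5 was 1.50-fold lower (log2 -0.58, SE 0.17, adjusted p = 0.0099) and RAMP2 1.56-fold lower (log2 -0.64, SE 0.22, adjusted p = 0.034). These 3 of 8 were called lower, against 17.2% of all probe sets called lower and 13.1% called higher, and in the same 3 all arrays of 28 dpn lay below all fetal ones, as in 13.6% of all. The RAMP2 call ended with the arrays centred on their medians (adjusted p = 0.0759) and without any of 94 dpc replicates 1, 2, 3 and 5 or 28 dpn replicates 3, 5 and 6 (adjusted p 0.0503 to 0.0774). The intervals of the others were log2 -0.76 to -0.03 for the brighter PECAM1 probe set (adjusted p = 0.099), -0.59 to 0.69 for the dimmer one, -1.16 to 0.19 for TIE1 and -0.76 to 0.17 for ANGPT2. After quantile normalization the brighter PECAM1 probe set was called lower (log2 -0.60, adjusted p = 0.0128). It was also called lower with array weights (adjusted p = 0.0377) and when only the stages compared were fitted (adjusted p = 0.0460). The same held with only probe sets above the median brightness (adjusted p = 0.0498).

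Between 28 dpn and 188 dpn the junction genes and RAMP2 fell, whereas TIE1 and ANGPT2 were not called. Lower calls were made for 6 of 8 probe sets, against 8.2% of all called lower and 3.65% called higher, and in the same 6 all arrays of 188 dpn lay below all those of 28 dpn, as in 8.13% of all. The median change was log2 -1.48 for the members and -0.12 over all probe sets. PECAM1 on its brighter probe set averaged 1001 ± 264 at 188 dpn (n = 4) and 3700 ± 527 at 28 dpn (n = 6), 3.71-fold lower (log2 -1.89, SE 0.20, adjusted p = 4.1e-06). The dimmer probe set was 2.83-fold lower, at 306 ± 50.3 in 188 dpn and 893 ± 122 in 28 dpn animals (log2 -1.50, SE 0.35, adjusted p = 0.0061). CDH5 was 3.51-fold lower on its brighter probe set (618 ± 92.1 at 188 dpn, 2224 ± 376 at 28 dpn, log2 -1.81, SE 0.19, adjusted p = 4.5e-06) and 2.76-fold lower on its dimmer one (109 ± 20.4 at 188 dpn, 326 ± 37.9 at 28 dpn, log2 -1.47, SE 0.23, adjusted p = 0.00029). For CLDN5 the means were 395 ± 83.0 at 188 dpn and 1205 ± 210 at 28 dpn, 2.98-fold lower (log2 -1.58, SE 0.18, adjusted p = 1.4e-05).

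RAMP2 was 2.22-fold lower at 188 dpn, with 1044 ± 253 against 2315 ± 366 at 28 dpn (log2 -1.15, SE 0.25, adjusted p = 0.0039). TIE1 averaged 169 ± 26.4 at 188 dpn and 228 ± 80.0 at 28 dpn, a difference of log2 -0.35 (95% interval -1.10 to 0.41, adjusted p = 0.63). ANGPT2 averaged 156 ± 20.8 at 188 dpn and 217 ± 44.1 at 28 dpn, a difference of log2 -0.42 (95% interval -0.94 to 0.09, adjusted p = 0.31). Their ranges overlapped between these ages. Whether the 2 angiopoietin system genes differ from the 4 others in this step was not tested.

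Of 25 other endothelial markers 14 were called lower and 0 higher by limma (1 higher at an unadjusted p under 0.05; median log2 -0.78), with NOTCH4, a receptor of arterial endothelium, at 159 in 188 dpn animals and 507 in 28 dpn animals (log2 -1.59, adjusted p = 0.00042). CD34 (log2 -1.23), the TGF-β co-receptor ENG (log2 -1.19) and the sphingosine-1-phosphate receptor S1PR1 (log2 -1.07) followed. Under quantile normalization 10 of the 25 were called lower, and 10 with median centring. JAM3 (log2 -1.52), CLDN11 (to a mean of 29.5, below background, against 108 at 28 dpn) and ESAM (log2 -0.95) fell among the 12 junction partners, ADM (log2 -1.10) among the 5 adrenomedullin and CGRP genes, and FABP5 (log2 -1.40), AQP1 (log2 -1.19) and FABP4 (log2 -1.14) among the 7 lipid-handling genes. EPAS1 (log2 -1.48), ERG (log2 -1.42) and LMO2 (log2 -1.08) fell among the transcription factors and ETS2 rose (log2 1.57). Limma called 0 of the 2 angiopoietin partners and 0 of the 5 VEGF genes (1 and 2 at an unadjusted p under 0.05). With median centring 1 of the 5 VEGF genes was called higher.

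Vessel wall and connective tissue genes were lower at 188 dpn too, and their part was not tested. Mural cell genes were lower in 5 of 9, with PDGFRB at log2 -1.28 and ACTA2 at log2 -1.25, and summed signals of 34125 to 42954 at 188 dpn and 38541 to 55323 at 28 dpn. Fibroblast genes were lower in 4 of 8, with sums of 17035 to 29818 at 188 dpn and 30407 to 44942 at 28 dpn. Of these FBLN1 lost its call with median centring (adjusted p = 0.135) and after quantile normalization (adjusted p = 0.0638). Leukocyte genes were lower in 2 of 12, or 1 with median centring (C1QC, adjusted p = 0.0671, lost its call). Their sums were 1976 to 6313 at 188 dpn and 3347 to 11762 at 28 dpn. Limma called 0 of 13 muscle fibre genes (2 lower at an unadjusted p under 0.05), and their sums were 712424 to 761246 at 188 dpn and 747460 to 857615 at 28 dpn.

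Over the whole span from fetus to 188 dpn, 7 of 8 probe sets were lower, against 22.5% of all called lower and 13.6% called higher, and in all 8 every array of 188 dpn lay below every fetal array, as in 21.4% of all. CDH5 on its brighter probe set showed the largest change of the members, 7.52-fold (618 ± 92.1 at 188 dpn, n = 4, and 4735 ± 430 at 94 dpc, n = 6, log2 -2.91, SE 0.19, adjusted p = 2.7e-10). Next came the brighter PECAM1 probe set, 4.87-fold lower (log2 -2.28, adjusted p = 7.9e-09), CLDN5, 4.47-fold lower (log2 -2.16, adjusted p = 7.0e-09), and RAMP2, 3.46-fold lower (log2 -1.79, adjusted p = 5.3e-06). The dimmer probe sets of PECAM1 and CDH5 were lower by 2.73-fold and 2.62-fold. ANGPT2 was 1.64-fold lower (log2 -0.72, SE 0.25, adjusted p = 0.027), a call that ended under quantile normalization (adjusted p = 0.274), median centring (0.158), a pseudocount of 1 (0.0613), and without 94 dpc replicate 2 or 188 dpn replicates 1, 3 or 4 (0.0550 to 0.0670). TIE1 averaged 169 ± 26.4 at 188 dpn and 312 ± 32.8 at 94 dpc and was not called (log2 -0.83, 95% interval -1.59 to -0.08, adjusted p = 0.081). It was called when only these 2 ages were fitted (adjusted p = 0.00073) and without 1 dpn replicate 6 (adjusted p = 0.0405). Over the same span 15 of 25 other endothelial markers fell, led by VCAM1 (log2 -2.31), while VEGFA rose to 9693 at 188 dpn, against 2871 at 94 dpc (log2 1.74, adjusted p = 1.9e-06). Mural cell genes were lower in 6 of 9 and fibroblast genes in 7 of 8, and muscle fibre genes were higher in 11 of 13, or 4 of 13 after quantile normalization.

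The ages 188 dpn and 1 dpn were compared after the data had been seen. Of 8 probe sets 3 were higher at 188 dpn, against 14.2% of all, and 2 were lower, against 15.7% of all. Groups did not overlap for 4 of the 8, where 8.99% of all probe sets had every 188 dpn array above and 8.88% below. TIE1 (169 ± 26.4 at 188 dpn, n = 4, and 52.6 ± 43.7 at 1 dpn, n = 6, at least 1.90-fold, adjusted p = 0.0011) and ANGPT2 (156 ± 20.8 at 188 dpn, 47.6 ± 26.7 at 1 dpn, at least 1.92-fold, adjusted p = 5.9e-05) were higher at 188 dpn. The brighter probe sets of CDH5 (log2 -1.13, SE 0.19, adjusted p = 0.00011) and PECAM1 (log2 -0.97, SE 0.20, adjusted p = 0.00061) were lower. The dimmer probe sets of both genes were not called, and that of PECAM1 averaged 306 at 188 dpn and 225 at 1 dpn. It was called higher with array weights (log2 1.01, adjusted p = 0.0148) and without 1 dpn replicate 1 (log2 0.97, adjusted p = 0.0117). On the even newborn arrays it came to log2 -0.40 (adjusted p = 0.282). The mean of both PECAM1 probe sets differed by log2 -0.14 (adjusted p = 0.692). CLDN5 differed by log2 -0.15 (95% interval -0.53 to 0.24). RAMP2 passed narrowly (log2 0.66, SE 0.25, adjusted p = 0.04998). Against the even newborn arrays alone it stood at log2 -0.06 (adjusted p = 0.879). On those arrays 3 of 8 were called, TIE1 (at least 2.14-fold), ANGPT2 (at least 1.91-fold) and the brighter CDH5 probe set (log2 -1.06), and the brighter PECAM1 probe set was not (log2 -0.70, adjusted p = 0.0518).

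**Figure D4:**
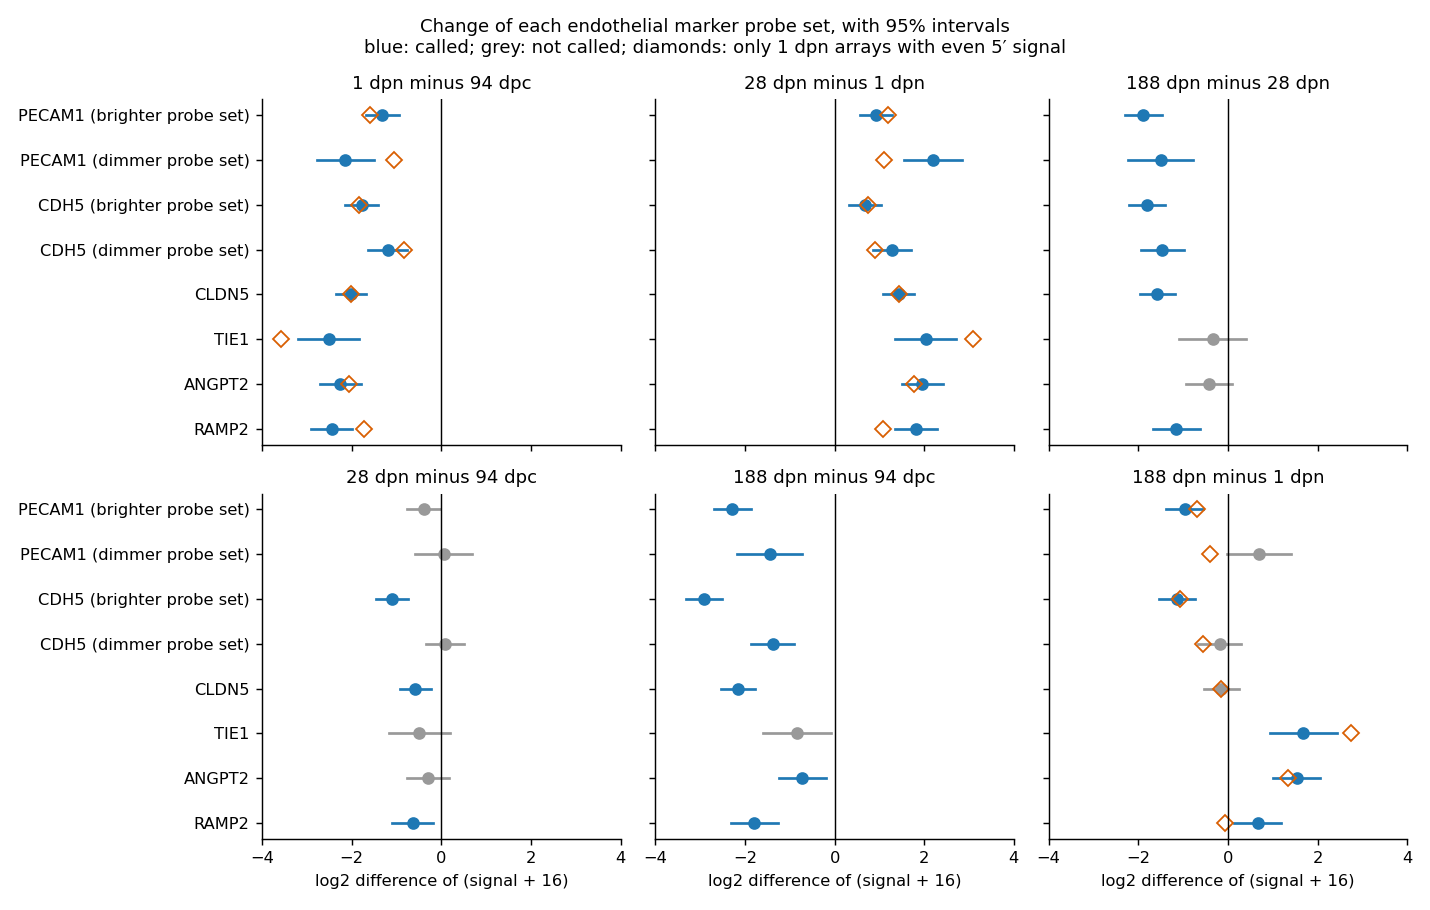
Log2 difference (signal + 16) of each endothelial marker probe set in 6 comparisons, with 95% intervals (blue, called; grey, not called) and the value on only the 2 newborn arrays with even 5′ signal as a diamond. All 8 are below 0 at 1 dpn against 94 dpc and above 0 at 28 dpn against 1 dpn, and at 188 dpn against 28 dpn the intervals of TIE1 and ANGPT2 include 0. Values of TIE1 and ANGPT2 against 1 dpn rest on newborn readings that are mostly below background, so their sizes are not exact.

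Placed in order of level, the brighter CDH5 probe set ran 94 dpc, 28 dpn, 1 dpn, 188 dpn from high to low, with every neighbouring pair called apart. The brighter PECAM1 probe set had the same order, with 94 dpc and 28 dpn not called apart. CLDN5 ran 94 dpc, 28 dpn and then 1 dpn and 188 dpn, and the last pair was not called apart. In the order of RAMP2, 1 dpn came last and was narrowly called below 188 dpn. On the even newborn arrays alone RAMP2 was not called between them (log2 -0.06 for 188 dpn minus 1 dpn). For TIE1 and ANGPT2 the order was 94 dpc, 28 dpn, 188 dpn, 1 dpn, in which 94 dpc and 28 dpn, and 28 dpn and 188 dpn, were not called apart, and 1 dpn was called below all 3. The ends of that run, 188 dpn and 94 dpc, were called apart for ANGPT2 and not for TIE1, and both outcomes changed under several alternatives. Whether TIE1 and ANGPT2 differ in this was not tested. On the dimmer probe sets of PECAM1 and CDH5, 28 dpn and 94 dpc formed an upper pair and 1 dpn and 188 dpn a lower pair, neither pair called apart within itself. For the dimmer PECAM1 probe set, 188 dpn was called above 1 dpn with array weights and without 1 dpn replicate 1.

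Across the 22 arrays the members varied together mostly through the stages. Over the 28 pairs of probe sets Pearson's r ranged from 0.46 to 0.95 (median 0.76), and over deviations from the stage means from -0.59 to 0.68 (median 0.06). These are descriptions, since all pairs share the arrays, their scaling and the 4 stages. The brighter probe sets of PECAM1 and CDH5 had r of 0.95 over the arrays and 0.68 within stages. TIE1 and RAMP2 had 0.68 over the arrays and -0.59 within stages, with 4 newborn readings of TIE1 below background. The 2 probe sets of PECAM1 had r of 0.67 over 22 arrays and 0.95 over the 18 arrays with even 5′ signal.

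The genes whose profile was most like the mean standardised profile of the 6 members, among 5718 other named genes with a mean above background, were ranked by Pearson's r over the 22 arrays. First came AURKB, a kinase of cell division (r = 0.94), which averaged 452, 55.4, 200 and 54.1 at 94 dpc, 1, 28 and 188 dpn. C4H1orf54 (r = 0.94) averaged 1040, 151, 399 and 113. The phospholipid flippase ATP8B1 (r = 0.93) averaged 301, 94.8, 201 and 101, and the growth factor MDK (r = 0.92) averaged 3554, 100.4, 557 and 210. The carboxypeptidase inhibitor LXN (r = 0.92) averaged 2606, 375, 855 and 242. All 5 were highest in the fetus and higher at 28 dpn than at 1 dpn and 188 dpn, an order for which the ranking selects. Within stages their r to the members' profile was 0.65, 0.22, 0.51, 0.55 and 0.73 in the same order, and over the 18 even arrays 0.98, 0.94, 0.95, 0.91 and 0.96. The 18 arrays are among the 22 that set the ranking, so these values are descriptions only.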

How the data were processed

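Biotinylated cRNA from 0.5 µg of total RNA was hybridised to an Affymetrix porcine array, per the labels' protocols. The deposited table holds linear signal intensity per probe set, made by the authors with GCOS (version 1.1.1, as the submitters' processing notes give it), and its mean after trimming 2% at each end is 500 on every array. Of 24123 probe sets 124 controls were left out. Of the 23999 tested, 10069 carry 1 gene symbol, 198 several and 13732 none in the annotation used. Symbols were updated through the Entrez gene identifier, which was found in the RefSeq gene list for 9961 and not for 108. Values were tested as log2(signal + 16) with limma 3.58.1 in R 4.3.3, with 1 mean per stage over all 22 arrays and Benjamini-Hochberg adjustment over 23999 probe sets, called at an adjusted p under 0.05. The number of arrays limits precision. In simulated data for 1 dpn minus 94 dpc, changes of log2 2, 1 and 0.5 were given to 66, 67 and 67 probe sets. They were called in 87.9%, 38.8% and 1.49%, with 2 false calls among 23999. In the data 7836 probe sets were called in this comparison, which changes the adjustment. These simulated rates therefore do not carry over to the data.

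Each list gene was read on its brightest probe set, and from each of 17 lists at most 4 called genes with the largest change are named for a comparison, beside the list's counts. Folds against newborn readings below background are lower bounds, computed after the data were seen. Any adjusted p beside such a bound is that of limma on the readings as they stand, and no bound was tested. Genes named for a lost call, and CALCRL, are outside this rule. The members and lists were chosen with earlier results of these data known. Alternatives were quantile normalization, median centring, a pseudocount of 1, trended and robust variance, array weights, only the stages compared, only probe sets above the median brightness, averaged probe sets of a gene, each sample left out, a covariate for the GAPDH 5′/3′ ratio, and newborn arrays of even 5′ signal alone. The comparison of 188 dpn with 1 dpn, and alternatives for the lists, were added after the data were seen. Sequences and coordinates were not used here.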

Additional observations from a re-analysis of the deposited data

Results flagged for a closer look

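ANGPT2 in the second of the 4 animals of 188 dpn stood apart from its group. Its signal was 187, against 142 to 148 in the other 3, and the gap to the nearest of them made up 0.854 of the group's range on the log2 scale. It was the only such array among 32 groups of 4 to 6 arrays examined (8 probe sets at 4 stages), where chance alone marks about 1 group in 20. Without this animal the ANGPT2 difference between 188 dpn and 94 dpc remained called.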

How the results depend on the processing

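Of 1476 member results under alternatives, 1417 kept their direction and their side of the threshold, 41 lost a call, 11 gained one and 7 reversed. None changed for 1 dpn minus 94 dpc (250 results) or 188 dpn minus 28 dpn (242 results). Fitting only the stages compared lowered the calls over all probe sets to 3347 for 28 dpn minus 1 dpn, against 5357, and to 4695 for 188 dpn minus 1 dpn, against 7167. On the even newborn arrays 3 member probe sets were called between 188 dpn and 1 dpn, against 5. With each sample left out, member calls ranged from 8 to 8 (1 dpn minus 94 dpc and 28 dpn minus 1 dpn), 6 to 6 (188 dpn minus 28 dpn), 2 to 3 (28 dpn minus 94 dpc), 6 to 8 (188 dpn minus 94 dpc) and 4 to 6 (188 dpn minus 1 dpn). The reversals were all of uncalled values or of the narrow RAMP2 call. For 28 dpn minus 94 dpc the dimmer PECAM1 probe set came to log2 -0.015 without 94 dpc replicate 5 and to -0.00047 without 28 dpn replicate 5, and ranged from -0.015 to 0.109 over the samples left out. For 188 dpn minus 1 dpn it came to -0.40 on the even arrays and -0.16 with the GAPDH ratio as a covariate, RAMP2 to -0.063 and -0.14, and the dimmer CDH5 probe set ranged from -0.285 to 0.0300 over the samples left out, the highest without 1 dpn replicate 1. The causes were not tested. The arrays' own medians differed by log2 -0.26, 0.20, -0.20, -0.07 and -0.27 for 1 dpn minus 94 dpc, 28 dpn minus 1 dpn, 188 dpn minus 28 dpn, 28 dpn minus 94 dpc and 188 dpn minus 94 dpc, and relative to that shift, that is after centring, the members' median changes were -1.82, 1.42, -1.28, -0.37 and -1.35. The percentage of all calls that were higher, as deposited, after quantile normalization and after centring, was 33.5, 47.4 and 57.7 for 1 dpn minus 94 dpc, 62.4, 49.8 and 39.7 for 28 dpn minus 1 dpn, 30.8, 44.2 and 60.1 for 188 dpn minus 28 dpn, and 37.7, 48.6 and 56.2 for 188 dpn minus 94 dpc. TIE1 and ANGPT2 at 1 dpn are limited by their nearness to background. No paired analysis was possible because the labels give running sample numbers and no number shared between the stages.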

Other observations

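Of 3 measured genes of lymphatic endothelium, CCL21, a chemokine of lymph vessels, was lower at 1 dpn than at 94 dpc (mean signals of 116 at 1 dpn and 407 at 94 dpc, log2 -1.98). At 28 dpn the membrane glycoprotein PDPN (log2 -1.71) and the hyaluronan receptor LYVE1 (log2 -0.70) were lower than at 1 dpn, and CCL21 was higher (log2 1.17). All 3 were lower at 188 dpn than at 94 dpc, PDPN by log2 -1.56, and the means of CCL21 and LYVE1 at 188 dpn, 24.5 and 65.1, were below the background signal of 69.7. On the even newborn arrays CCL21 was called neither at 1 dpn against 94 dpc (adjusted p = 0.084 with limma) nor at 28 dpn against 1 dpn (adjusted p = 0.692 with limma), and LYVE1 was not called at 28 dpn against 1 dpn (adjusted p = 0.532 with limma). The rise of CCL21 at 28 dpn was also lost with median centring (adjusted p = 0.078) and with quantile normalization (adjusted p = 0.073). Of 5 measured erythroid genes, 1 was lower at 1 dpn than at 94 dpc and 2 were higher at 28 dpn than at 1 dpn. On the even newborn arrays 2 were lower at 1 dpn than at 94 dpc. With median centring, and also with quantile normalization, 1 was higher at 28 dpn than at 1 dpn. At 188 dpn 2 of the 5 were lower than at 28 dpn, the haem synthesis enzyme ALAS2 by log2 -2.36 and the haemoglobin chaperone AHSP to a mean of 27.8 at 188 dpn, below background, against 197 at 28 dpn. AHSP lost its call with median centring and with quantile normalization (adjusted p = 0.072 in both). Whether these lists differ from the 6 endothelial markers was not tested.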
